A study of Homo sapiens with 8 samples.

Results

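The HOX genes of the 4 human clusters were taken as 1 set and followed from human embryonic stem cells to sorted cells with endothelial markers. The set was fixed by gene name alone, as the protein-coding HOX genes. It holds 38 genes, with 10 in the HOXA cluster, 10 in HOXB, 9 in HOXC and 9 in HOXD. Of these, 28 had at least 1 probe set annotated to them alone and so were among the 19775 genes with a value. Of the 28, 17 were bright enough to be tested. These 17 were 9 of the HOXB genes, 5 of the HOXC genes and 3 of the HOXD genes. In HOXA only HOXA2 had such a probe set, and it was too dim to test; HOXA3, HOXA4, HOXA5, HOXA6, HOXA7, HOXA9, HOXA10, HOXA11 and HOXA13 were not analysed here. HOXD3 was covered only by 3 probe sets that also carry the names HOXD4 and LOC401021, so it has no value of its own.

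All samples were H9, an established human embryonic stem cell line kept on mouse embryonic fibroblast feeders. The day 0 group was undifferentiated and not sorted. The other groups came from cultures differentiated toward blood in a serum-free StemPro34 medium with BMP-4, from which KDR+CD31+ cells were sorted by FACS at day 4, day 6 or day 8. KDR is the main receptor for vascular endothelial growth factor, and CD31, the product of PECAM1, is an adhesion molecule of endothelium. Each group had 2 expression arrays, 8 in all, called biological replicates in the labels without word on whether they shared a culture. A p-value here reflects array-to-array spread only, which may be technical. As every sample came from a single cell line and day 0 was the only unsorted group, day and sorting cannot be told apart in a comparison with day 0.

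HOX genes encode homeodomain transcription factors that give cells their position along the head-to-tail axis. Within a cluster they are numbered by paralogue group from the 3' end, and in the embryo genes at the 3' end tend to be switched on earlier and nearer the head than genes at the 5' end. In blood and its precursors HOXA and HOXB genes are the clusters best known for activity, and the proteins bind DNA together with PBX and MEIS homeodomain partners. In undifferentiated stem cells Polycomb complexes hold the clusters mostly silent, and retinoic acid and caudal (CDX) factors are classical activators.

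Levels are given as log2(intensity + 32), here called log2 intensity, and changes are differences between the means of 2 arrays on that scale. A gene was tested where it lay above the median of its array on at least 2 of the 8 arrays, and was called where the adjusted p of limma was under 0.05 over all 13647 genes tested. Of the 17 tested HOX genes, 6 passed this filter only through sorted arrays, namely HOXB6, HOXB7, HOXB8, HOXD1, HOXD8 and HOXD13. For these a lower level at day 0 was partly built into the filter. The level of 1 probe set cannot be set against that of another, so all comparisons are within a gene. In bulk RNA, fewer cells with a transcript and less transcript per cell cannot be told apart.

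The median intensity of the arrays lay between 88.7 and 93.2 units. The sorted arrays carried the gate and lineage genes of their labels. KDR read 9.02 and 9.24 at day 0 and from 13.55 to 13.87 on the sorted arrays, and CDH5, the cadherin of endothelial junctions, read 5.73 and 5.69 against 12.23 to 13.26. All 13 endothelial markers of the list used rose on each day. Of 5 tested erythroid markers RHAG and KLF1 rose on all 3 days, and HBE1, the embryonic globin, and ALAS2 also at day 8. The mean level of the 6 measured erythroid markers, the untested EPB42 included, was 6.44 and 6.37 on the day 0 arrays. It was from 7.26 to 8.94 on the sorted ones. Of 9 tested yolk sac endoderm markers AFP alone was called, with a rise of 4.56 at day 8 (limma, adjusted p 0.046). The median change of the 9 was 2.26 at day 4, 0.49 at day 6 and 2.44 at day 8. Both sorted arrays exceeded both day 0 arrays for 7, 1 and 8 of them, beside 34.3%, 30.3% and 35.3% of all genes tested. The part of erythroid and yolk sac endoderm cells in the HOX changes was not tested. The first replicates of day 4 and day 6 had the highest ratios of 3' to 5' signal for ACTB, a measure of RNA integrity. These were 18.96 and 30.99, against 8.92 to 16 on the other 6 arrays. By the same ratio for GAPDH they read 2.22 and 3.73, close to the 2.15 and 3.41 of their partner arrays. The GAPDH ratio was 1.71 and 1.91 at day 0 and 2.15 to 3.73 on the sorted arrays. It thus moved with the comparison with day 0, and its part in the results was not tested.

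At day 4, 6 HOX genes had risen against day 0, and they were the neighbours HOXB2, HOXB3, HOXB4, HOXB5, HOXB6 and HOXB7. No tested HOX gene had fallen, and the other 11 did not pass the test. Over all genes tested 8.52% were called higher and 9.91% lower. The 6 called HOX genes were again HOXB2 to HOXB7 at day 6, where 9.73% of all genes were called higher and 13.6% lower. At day 8 HOXD8 joined them, giving 7 of 17, where the shares of all genes were 10.4% higher and 14.1% lower. Both sorted arrays exceeded both day 0 arrays for 14 of the 17 at day 4, 10 at day 6 and 12 at day 8, beside 34.3%, 30.3% and 35.3% of all genes tested. The median change of the 17 tested HOX genes was 0.73 at day 4, 0.45 at day 6 and 0.91 at day 8, beside 0.02, -0.03 and -0.03 over all genes tested. By cluster, the day 8 median was 1.52 for the 9 HOXB genes, 0.12 for the 5 HOXC genes and 0.82 for the 3 HOXD genes. These 3 comparisons share the day 0 arrays and are not independent of each other.

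**Figure D1:**
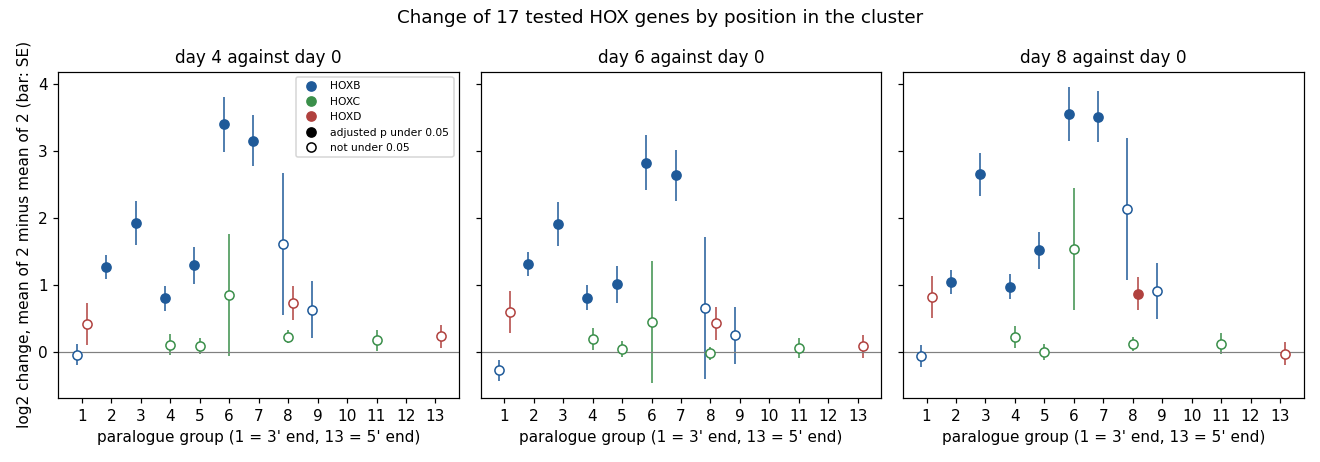
Change of each tested HOX gene from day 0, on the log2(intensity + 32) scale, against its paralogue group, with 1 panel for each sorted day; points are differences between the means of 2 arrays, bars are the SE of the fit, and colours mark the clusters. The HOXB points of groups 2 to 7 lie above 0 on every day, with HOXB6 and HOXB7 highest, while HOXB8 and HOXC6 have wide bars.

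HOXB6 and HOXB7 moved most. HOXB6, a gene of trunk mesoderm, read 6.24 and 6.27 on the day 0 arrays, 10.19 and 9.10 on the day 4 arrays, 8.77 and 9.38 on the day 6 arrays, and 10.12 and 9.49 on the day 8 arrays. Both day 0 arrays were below the array median, and all 6 sorted arrays lay far above them without overlap. The change was 3.39 ± 0.41 (SE), 2.82 and 3.55 on day 4, day 6 and day 8, or 10.5-fold, 7.07-fold and 11.7-fold on this scale (limma, adjusted p 0.00179, 0.00349 and 0.00127). HOXB7, its 5' neighbour, read 6.52 and 6.74 before differentiation (day 0), 10.21 and 9.34 on the arrays of day 4, 8.89 and 9.63 on those of day 6, and 10.43 and 9.83 on those of day 8. The arrays ordered in the same way as for HOXB6, with replicate 1 the higher array at day 4 and day 8 and the lower one at day 6. HOXB7 rose by 3.15 ± 0.38 (SE), 2.63 and 3.50 on the 3 days (limma, adjusted p 0.00193, 0.00365 and 0.00104). Because both genes were dim at day 0, their folds depend on the offset; with a smaller or a larger offset the day 8 change was 4.25 or 2.52 for HOXB6 and 4.01 or 2.65 for HOXB7.

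HOXB3 was the gene with the next largest rise. It read 8.69 and 8.79 on the day 0 arrays, 10.84 and 10.48 on the day 4 arrays, 10.17 and 11.13 on the day 6 arrays, and 11.29 and 11.49 on the day 8 arrays. Every sorted array was above both day 0 arrays, and both day 8 arrays were above all 4 arrays of day 4 and day 6. The change from day 0 was 1.92 ± 0.32 (SE) at day 4, 1.91 at day 6 and 2.65 on day 8, the last a 6.26-fold rise (limma, adjusted p 0.00754, 0.0068 and 0.00173). The difference of 0.72 between day 8 and day 4 did not pass the test (limma, adjusted p 0.724).

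HOXB2, the most 3' of the called genes, read 8.70 and 8.69 before differentiation (day 0), 10.10 and 9.81 on the arrays of day 4, 9.97 and 10.04 on those of day 6, and 9.82 and 9.66 on those of day 8. Its sorted arrays were close to each other on all 3 days. It rose by 1.26 ± 0.18 (SE), 1.31 and 1.04 (limma, adjusted p 0.00363, 0.00274 and 0.00679), which is 2.4-fold, 2.48-fold and 2.06-fold. HOXB5 read 7.78 and 8.10 on the day 0 arrays, 9.48 and 8.99 on the day 4 arrays, 8.64 and 9.25 on the day 6 arrays, and 9.36 and 9.56 on the day 8 arrays. The lowest of its sorted arrays was again replicate 1 of day 6, which still exceeded both day 0 arrays. HOXB5 rose by 1.29 ± 0.28 (SE), 1.01 and 1.52 (limma, adjusted p 0.0192, 0.0403 and 0.00889).

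HOXB4, long used as a driver of blood stem cell expansion, had the smallest called rise among the HOXB genes. It read 8.29 and 8.18 before differentiation (day 0), 9.15 and 8.91 on the arrays of day 4, 8.99 and 9.09 on those of day 6, and 9.04 and 9.38 on those of day 8. No sorted array overlapped day 0, and the sorted days overlapped each other. The change was 0.80 ± 0.19 (SE) at day 4, 0.81 at day 6 and 0.97 at day 8, which is 1.74-fold, 1.75-fold and 1.96-fold (limma, adjusted p 0.0277, 0.0232 and 0.0112).

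The calls of HOXB6 and HOXB7 remained on all 3 days in each of the 20 alternative analyses. Leaving out either day 0 array left only HOXB6 and HOXB7 called at day 4, those with HOXB2 at day 6, and those with HOXB3 at day 8. HOXB4 and HOXB5 also lost their call without 1 array of the sorted day itself, which was replicate 1 at day 4 and replicate 2 at day 6 and day 8. The day 6 call of HOXB5 was lost in 6 of the 20, among them without either day 8 array and with only the compared groups fitted (limma, adjusted p up to 0.262). Without replicate 1 of day 4 and of day 6, each of these days rested on 1 array. HOXB6 then rose by 2.84 at day 4 and 3.13 at day 6.

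**Figure D2:**
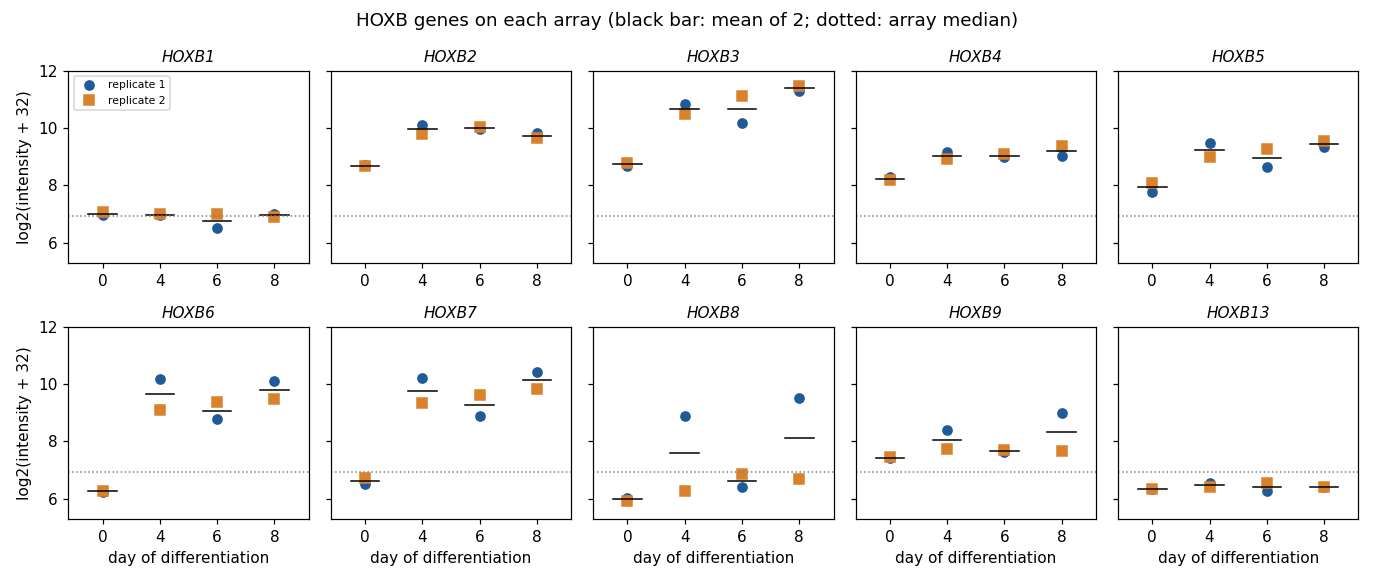
Log2(intensity + 32) of the 10 HOXB genes on each array, by day of differentiation; each marker is 1 array, its shape gives the replicate number, the black bar is the mean of 2, and the dotted line is the median of the arrays. HOXB2 to HOXB7 are higher on all 6 sorted arrays than on both day 0 arrays, HOXB8 and HOXB9 are split between the replicates at day 4 and day 8, and HOXB1 and HOXB13 stay near their day 0 level.

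On the 3' side of the called block of the HOXB cluster lies HOXB1, a hindbrain gene and a direct target of retinoic acid. HOXB1 read 6.98 and 7.06 on the day 0 arrays, 6.95 and 7.01 on the day 4 arrays, 6.51 and 6.99 on the day 6 arrays, and 7.02 and 6.90 on the day 8 arrays. On each sorted day at least 1 array lay within the range of the day 0 arrays. Its change was -0.04 at day 4, with a 95% interval from -0.42 to 0.34, and -0.06 at day 8, with an interval from -0.44 to 0.32. These upper bounds lie below the rises measured for HOXB2, and the difference between the genes was not tested. HOXB1 lay between 6.51 and 7.06, around array medians of 6.92 to 6.97. A second HOXB1 probe set read from 5.75 to 5.97, and whether HOXB1 gave signal above background was not tested. At the far 5' end HOXB13 read 6.34 and 6.36 at day 0 and from 6.26 to 6.54 on the sorted arrays, below the array median throughout.

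HOXB8 and HOXB9, on the 5' side of HOXB7, were split between replicates. HOXB8, a gene that can hold myeloid progenitors in an undifferentiated state when overexpressed, read 6.04 and 5.91 at day 0. It read 8.90 and 6.28 on the day 4 arrays, 6.41 and 6.85 on the day 6 arrays, and 9.53 and 6.69 on the day 8 arrays. All 6 sorted arrays exceeded day 0, but replicate 1 exceeded replicate 2 by 2.63 at day 4 and by 2.84 at day 8, and not at day 6. The mean change was 1.61 ± 1.06 (SE), 0.65 and 2.13, and it did not pass on any day (limma, adjusted p 0.359, 0.711 and 0.187). HOXB9 read 7.41 and 7.44 before differentiation (day 0), 8.40 and 7.72 on the arrays of day 4, 7.63 and 7.72 on those of day 6, and 9.0 and 7.67 on those of day 8. Here too replicate 1 was the higher array at day 4 and day 8, by 0.67 and 1.34, and the lower one at day 6. The change of HOXB9 at day 8 was 0.91 ± 0.42 (SE) and did not pass (limma, adjusted p 0.163). It rested on replicate 1, since it was 1.58 with that day 8 array alone and 0.24 with replicate 2 alone (limma, adjusted p 0.0269 and 0.617, with the spread taken from the other groups).

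Replicates also differed outside the HOXB cluster, in another order. HOXC6, which marks thoracic levels of the body axis, read 7.33 and 7.20 on the day 0 arrays, 9.38 and 6.84 on the day 4 arrays, 8.38 and 7.05 on the day 6 arrays, and 9.66 and 7.95 on the day 8 arrays. Replicate 1 exceeded replicate 2 by 2.54, 1.33 and 1.71 on the 3 days, and at day 4 and day 6 replicate 2 lay under both day 0 arrays. The change was 0.85 ± 0.91 (SE), 0.45 and 1.54, with no call (limma, adjusted p 0.585, 0.777 and 0.263). Leaving out replicate 1 turned its sign, to -0.42 at day 4 and to -0.22 at day 6. HOXC6 transcripts can share a first exon with HOXC4 and HOXC5, whose replicates differed less. For HOXC4 replicate 1 was also the higher array on all 3 days, by 0.07, 0.21 and 0.43. HOXC5 lay between 7.21 and 7.45 on all 8 arrays, with replicate 1 higher at day 4 alone.

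Over all genes tested, 33 of 13647, or 0.242%, had replicate 1 over replicate 2 by more than 1 at both day 4 and day 8, HOXB8 and HOXC6 included. This pattern was taken from the values of HOXB8 itself, which passed the filter through exactly these replicate 1 arrays, so the share is a description only. HOXC6 was also among the 22 genes, 0.161%, with such a difference on all 3 days, and 6 genes, 0.044%, had the opposite order. The same 33 included SOX2, a factor of pluripotent and neural cells, and ALDH1A2, an enzyme that makes retinoic acid. SOX2 read 6.91 and 5.83 on the day 4 arrays, 6.90 and 6.39 on the day 6 arrays, and 9.32 and 6.14 on the day 8 arrays, beside 12.90 and 12.92 at day 0. These companions were named after their values were seen. The mean level of the stroma and smooth muscle markers was 9.99 and 8.81 on the day 4 arrays, 9.76 and 8.71 on the day 6 arrays, and 9.18 and 9.10 on the day 8 arrays, against 11.02 and 11.04 on the day 0 arrays. That of the neural and hindbrain markers was 7.23 and 7.08, 7.10 and 7.08, and 7.82 and 7.09 on the same days. Yolk sac endoderm markers ran the other way at day 4, with 7.84 and 9.85, as at day 6, with 6.80 and 8.51, and were nearly level at day 8, with 8.99 and 8.86, beside 7.17 and 7.13 on the day 0 arrays. Lateral and cardiac mesoderm markers had means of 7.81 and 7.59, 7.58 and 7.13, and 7.21 and 7.03 on day 4, day 6 and day 8. Their day 0 means were 6.83 and 6.85. Those of endothelial markers were 11.35 and 11.77, 10.90 and 11.89, and 11.82 and 11.67, with replicate 2 higher at day 4 and day 6. The part of these cell types in the split of HOXB8, HOXB9 and HOXC6 was not tested.

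The HOXD genes were dim, and HOXD8 alone among them was called. HOXD8 read 5.98 and 5.97 before differentiation (day 0), 6.94 and 6.46 on the arrays of day 4, 6.38 and 6.41 on those of day 6, and 7.21 and 6.47 on those of day 8. All 6 sorted arrays were above day 0, but only replicate 1 of day 4 and of day 8 reached the array median. The rise at day 8 was 0.87 ± 0.25 (SE), with no call at day 4 or day 6 (limma, adjusted p 0.0454 at day 8, 0.0942 and 0.277 at day 4 and day 6). The day 8 call was lost in 10 of the 16 alternatives that could test it. HOXD1 read 6.70 and 6.36 on the day 0 arrays, 7.10 and 6.79 on the day 4 arrays, 6.68 and 7.56 on the day 6 arrays, and 7.61 and 7.09 on the day 8 arrays. Replicate 1 of day 6 lay within the day 0 range of HOXD1, and the other sorted arrays lay above it. Its change of 0.82 at day 8 had a 95% interval from 0.07 to 1.57 and did not pass after adjustment (limma, adjusted p 0.104). The day 6 change of HOXD1 was 0.59 with both arrays and 1.03 without replicate 1 of day 6, resting then on 1 array.

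**Figure D3:**
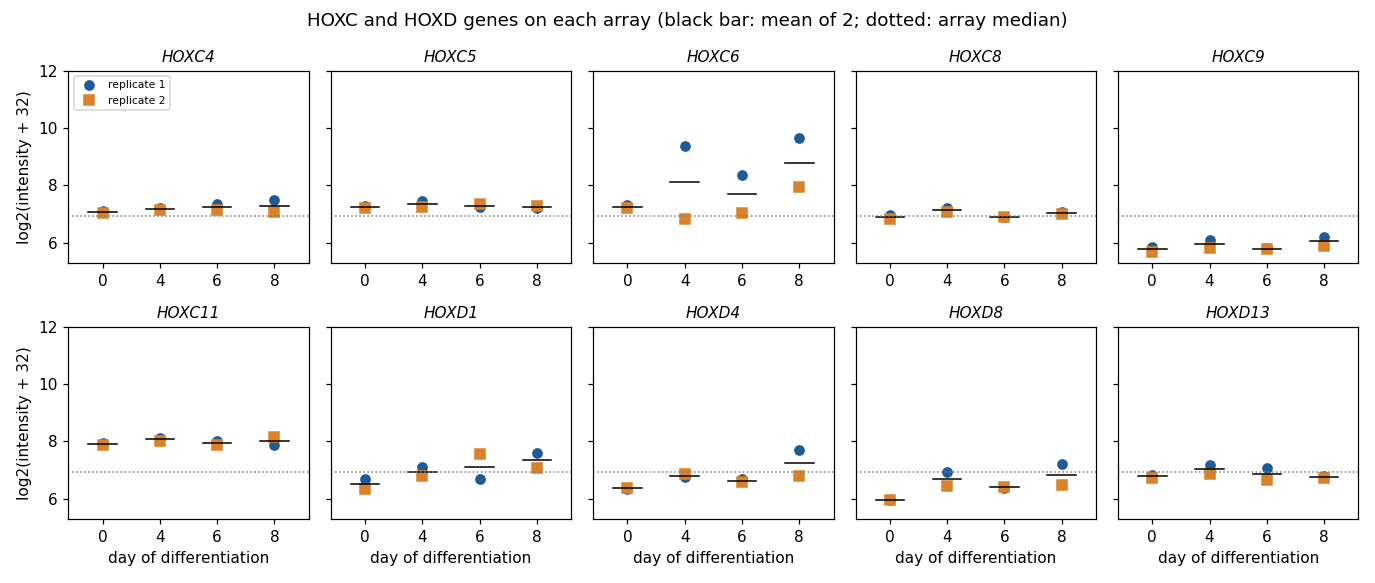
Log2(intensity + 32) of HOXC and HOXD genes on each array, by day of differentiation; each marker is 1 array, its shape gives the replicate number, the black bar is the mean of 2, and the dotted line is the median of the arrays. HOXC6 is split between replicates on all 3 sorted days, and HOXD8 is above its day 0 level on all 6 sorted arrays.

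The other tested HOXC and HOXD genes moved little. HOXC8 lay between 6.84 and 7.21, HOXC11 between 7.86 and 8.17 and HOXD13 between 6.67 and 7.19 over all 8 arrays. At day 8 the 95% interval of the change ran from -0.16 to 0.61 for HOXC4, from -0.29 to 0.29 for HOXC5, from -0.12 to 0.36 for HOXC8, from -0.25 to 0.49 for HOXC11 and from -0.43 to 0.38 for HOXD13. Each of these intervals holds 0.

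A further 11 members had a probe set of their own but were not tested, namely HOXA2, HOXB13, HOXC9, HOXC10, HOXC12, HOXC13, HOXD4, HOXD9, HOXD10, HOXD11 and HOXD12. Their log2 intensities lay between 5.64 and 7.71, and for 10 of the 11 the mean of each sorted day was within 0.5 of day 0. HOXD4 was the exception, with 6.33 and 6.39 before differentiation (day 0), 6.75 and 6.88 on the arrays of day 4, 6.69 and 6.57 on those of day 6, and 7.71 and 6.80 on those of day 8. Only replicate 1 of day 8 was above the array median for HOXD4. HOXA2, the sole HOXA gene with a value, read 6.15 and 6.15 on the day 0 arrays, 5.92 and 5.79 on the day 4 arrays, 5.92 and 5.88 on the day 6 arrays, and 5.97 and 5.83 on the day 8 arrays. All 6 sorted arrays were under day 0 for HOXA2, at levels below the array median, and it was called lower on all 3 days only where the filter was dropped.

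Promoters were given in the RefSeq table of GRCh38.p14 for 20 of the 38 members. Each window holds 250 bases before and 50 after a transcript start. HOXD8, the called HOXD gene, and HOXB1, the tested HOXB gene next to the called block, are printed to compare a window with a caudal-type motif and one without. Capitals mark a match to TTTATNG, the core bound by CDX factors. The HOXD8 window is chr2:176129455-176129754 on the plus strand, and that of HOXB1 is chr17:48530962-48531261 on the minus strand.
HOXD8: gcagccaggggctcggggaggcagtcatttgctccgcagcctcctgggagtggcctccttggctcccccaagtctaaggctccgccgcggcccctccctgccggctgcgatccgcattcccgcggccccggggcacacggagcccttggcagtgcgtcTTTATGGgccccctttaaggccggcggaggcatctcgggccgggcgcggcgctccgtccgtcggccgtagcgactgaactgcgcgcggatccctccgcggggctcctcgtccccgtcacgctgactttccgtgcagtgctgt
HOXB1: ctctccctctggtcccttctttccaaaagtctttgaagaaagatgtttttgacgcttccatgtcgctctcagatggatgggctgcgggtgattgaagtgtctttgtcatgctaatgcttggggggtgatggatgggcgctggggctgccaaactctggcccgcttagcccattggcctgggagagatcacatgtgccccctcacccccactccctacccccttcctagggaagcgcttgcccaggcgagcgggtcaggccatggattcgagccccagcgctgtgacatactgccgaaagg
The match in HOXD8 starts 92 bases before the transcript start. Searched on both strands, TTTATNG was found in 7 of 27 windows of these members and in 9.73% of all 35116 promoters of the table, where HOXC4 and HOXC5 share a window. None of the 27 windows belongs to HOXB2 to HOXB7. Of the genes with a match, HOXA3, HOXA9 and HOXA10 had no value and could not be called. HOXC4 and HOXC5 were tested and not called, and HOXD8 was called at day 8. TGATTNAT, a composite PBX and HOX motif, was found in 2 of the 27, those of HOXA2 and HOXD11, and in 2.82% of all promoters. No match of either motif overlapped one of the other in these windows, and a match is a run of letters, not a measured binding site.

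Between the sorted days no HOX gene was called, and neither was any other gene by limma. Before adjustment, p was under 0.05 for 722 genes for day 6 against day 4, 338 for day 8 against day 6 and 887 for day 8 against day 4. Of the 17 HOX genes 1 was among them in the first of these comparisons, HOXC8, and 0 in the others. For day 6 against day 4 the median change of the 9 HOXB genes was -0.28. It was 0.66 for day 8 against day 6, and 0.22 for day 8 against day 4. From day 6 to day 8 the difference was 1.48 for HOXB8, whose replicates were split, and 0.87 for HOXB7 (limma, adjusted p 0.955 for both). HOXB2 to HOXB9 and HOXD8 were above both day 0 arrays on all 6 sorted arrays, 9 of the 17 tested, and the same held for 22.2% of all genes tested.

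Probe sets of the same gene did not always move together. All 3 of HOXB7 were higher on the sorted days, by 3.50, 3.28 and 1.46 at day 8 for the probe set used and the other pair. Both of HOXB5 were higher, by 1.52 and 1.74 at day 8. For HOXB3 the rise of 2.65 at day 8 was on the brighter probe set, while the other differed by 0.26. For HOXB6 it was likewise on the brighter, while the other stayed between 5.91 and 6.16 on all 8 arrays, below the median. HOXB8 was split between replicates on the brighter, while the other read from 5.67 to 5.73. The values given for these genes are those of the brightest probe set, and the mean over the probe sets of HOXB6 rose by 1.83 at day 8 and was still called.

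**Figure D4:**
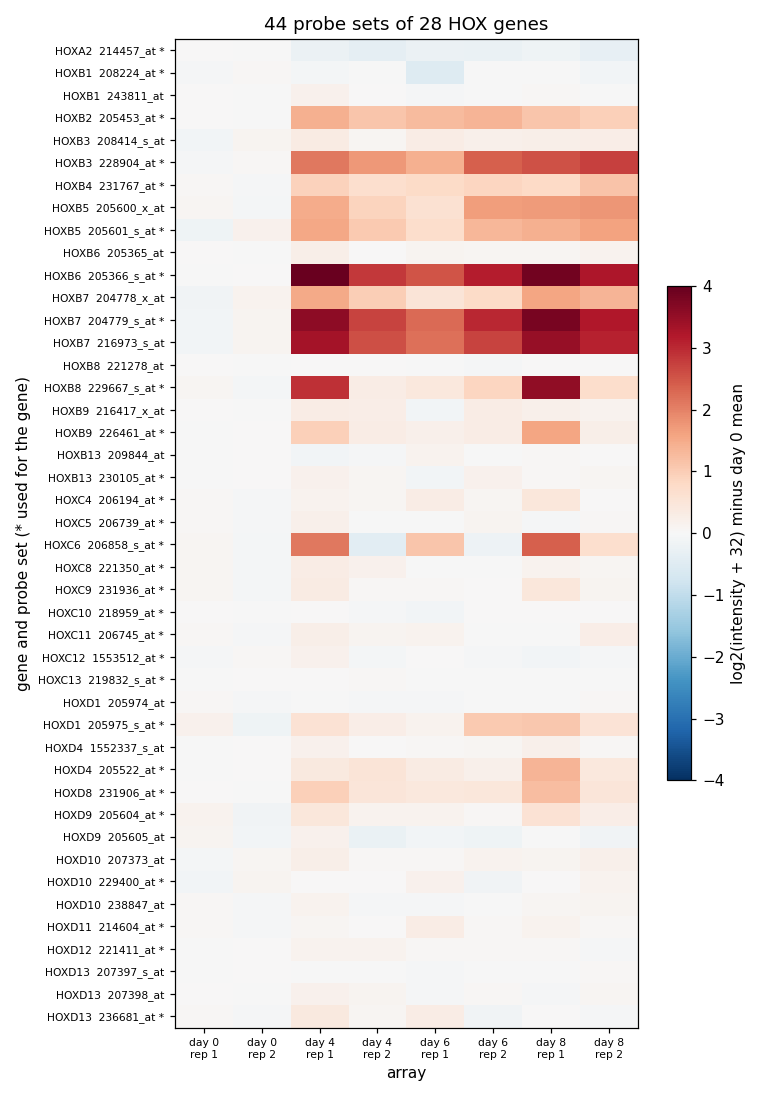
Log2(intensity + 32) minus the mean of the day 0 arrays for the 44 probe sets of 28 HOX genes (rows) on the 8 arrays (columns), with an asterisk on the probe set used for each gene. Of the HOXB3 and HOXB6 probe sets 1 each is coloured on the 6 sorted arrays and the other stays near 0, all 3 of HOXB7 are coloured, and HOXB8 and HOXC6 are darkest on replicate 1 of day 4 and of day 8.

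Noncoding genes lie between the members, and 11 of the 18 listed had a value, of which 3 were tested. HOXB-AS3, an antisense gene of the stretch around HOXB6, read 7.06 and 6.96 before differentiation (day 0), 7.49 and 7.36 on the arrays of day 4, 7.11 and 7.14 on those of day 6, and 7.54 and 7.43 on those of day 8. It rose by 0.41 at day 4 and by 0.47 at day 8 and was not called at day 6, where it differed by 0.11 (limma, adjusted p 0.0411, 0.0214 and 0.524). A second probe set of HOXB-AS3 went further, from 5.72 and 5.93 at day 0 to 8.28 and 7.81 at day 8. HOXB-AS1, another antisense gene of the cluster, read 6.78 and 6.72 at day 0 and 7.23 and 7.27 at day 6, and was called on that day alone, with a rise of 0.50 (limma, adjusted p 0.0167).

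The clusters also hold the genes of the miR-10 and miR-196 families, and transcripts of several HOX genes are known targets of these microRNAs. Their mature forms are shown because their genes lie inside the HOX clusters, with bases 2 to 8, the seed that pairs with a target, in capitals. RefSeq places miR-10a at chr17:48579904-48579926 on the minus strand in the HOXB cluster. It places miR-196a at chr17:48632532-48632553 on the minus strand in HOXB and at chr12:53991762-53991783 on the plus strand in HOXC. The place of miR-196b is chr7:27169528-27169549 on the minus strand in HOXA, all in GRCh38.p14.
hsa-miR-10a-5p: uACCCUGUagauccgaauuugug
hsa-miR-196a-5p: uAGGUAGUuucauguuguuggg
hsa-miR-196b-5p: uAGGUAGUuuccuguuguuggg
The miR-196 forms share 1 seed, and miR-10a has another. These arrays do not measure the mature forms, and no value is given for them. A probe set annotated to MIR10A, the gene of miR-10a, read 6.21 and 6.16 at day 0. It read from 6.36 to 6.68 at day 4 and day 6, and 7.40 and 7.08 at day 8. The gene passed the filter only through the day 8 arrays, and which transcript gave this signal was not tested.

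Partners of HOX proteins were followed in a list of 9 genes, of which 8 were tested. MEIS1 and MEIS2 rose on all 3 days, PBX3 fell at day 8 and the other 5 were not called on any day. Over all genes tested, 8.52% to 10.4% were called higher on these days and 9.91% to 14.1% lower. MEIS1, a partner of HOX proteins in blood stem cells, read 8.11 and 8.23 on the day 0 arrays, 10.94 and 11.51 on the day 4 arrays, 10.72 and 11.19 on the day 6 arrays, and 10.68 and 11.01 on the day 8 arrays. Its rise was 3.06, 2.79 and 2.67 ± 0.27 (SE), with no overlap of sorted and day 0 arrays (limma, adjusted p 0.000451, 0.000623 and 0.000733). MEIS2 rose by 1.37, 1.82 and 2.13 on the same days (limma, adjusted p 0.0137, 0.0038 and 0.00194). PBX3 fell by 0.73 at day 8 (limma, adjusted p 0.0415).

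Among 16 listed activators of the clusters 11 were tested, of which 8 belong to retinoic acid signalling or turnover. At day 4, 2 of the 11 rose and 1 fell, beside 8.52% of all genes called higher and 9.91% called lower. At day 6 and day 8 CYP26A1 alone was called, beside 13.6% and 14.1% of all genes called lower and 9.73% and 10.4% called higher. RARA, RARG, RXRA, RXRB and CYP26B1 were not called on any day. CYP26A1, which degrades retinoic acid, read 12.64 and 12.53 at day 0 and from 6.43 to 7.69 on the sorted arrays. It fell by 5.48, 5.80 and 5.52 on the 3 days (limma, adjusted p 0.000194, 0.000141 and 0.000177). ALDH1A2 read 6.38 and 6.24 before differentiation (day 0), 10.38 and 8.90 on the arrays of day 4, 9.10 and 7.53 on those of day 6, and 9.76 and 8.01 on those of day 8, with replicate 1 the higher array throughout. It rose by 3.32 at day 4, and the changes of 2.00 and 2.57 at day 6 and day 8 did not pass (limma, adjusted p 0.0254, 0.109 and 0.0503). RARB, a retinoic acid receptor, rose by 0.80 at day 4 (limma, adjusted p 0.0149). CDX1 and CDX2 were not called on any day, with changes between 0.12 and 0.22, and CDX4 lay between 6.57 and 6.92 and was not tested.

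**Figure D5:**
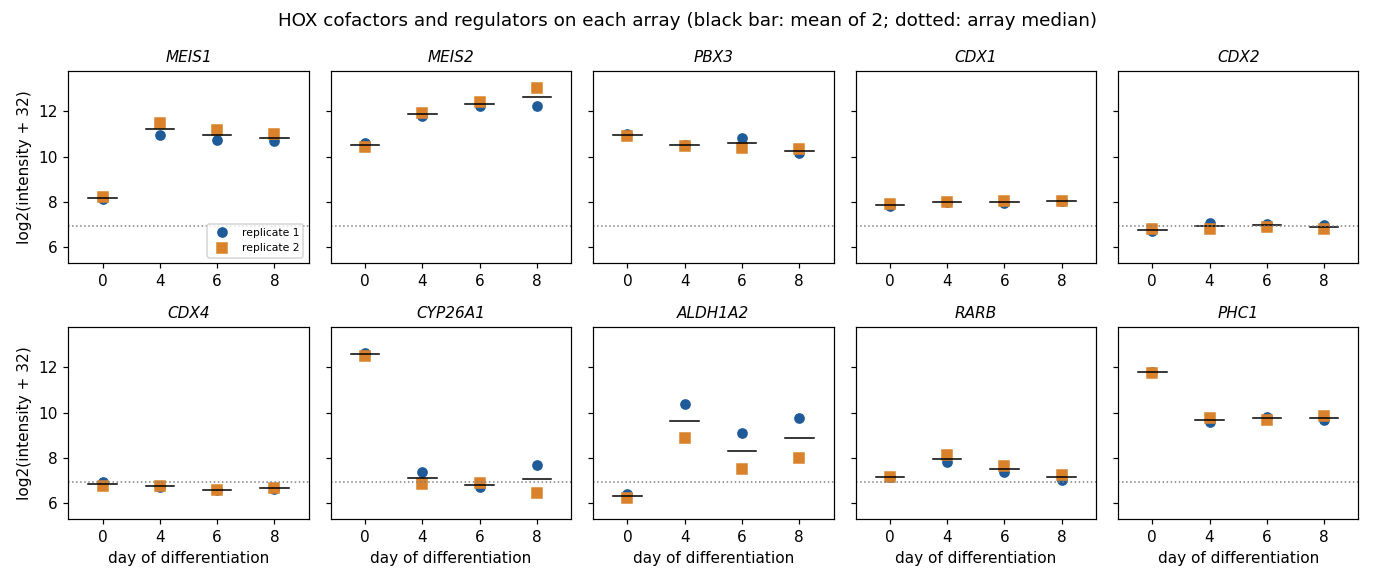
Log2(intensity + 32) of HOX partners and of regulators of the clusters on each array, by day of differentiation; each marker is 1 array, its shape gives the replicate number, the black bar is the mean of 2, and the dotted line is the median of the arrays. MEIS1 and MEIS2 are higher and CYP26A1 and PHC1 lower on all 6 sorted arrays than at day 0, and ALDH1A2 is split between the replicates.

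Of 23 listed chromatin regulators of the clusters 19 were tested. At day 4, 1 rose and 3 fell, at day 6, 2 rose and 4 fell, and at day 8, 1 rose and 4 fell, beside 8.52% to 10.4% of all genes called higher and 9.91% to 14.1% called lower. PHC1 and PHC2, which are alternative subunits of the Polycomb complex that marks H2A, went opposite ways. PHC1 fell by 2.10, 2.03 and 2.00, from 11.82 and 11.75 at day 0, and PHC2 rose by 1.37, 1.76 and 1.82, from 9.95 and 9.99 (limma, adjusted p at most 0.00317 for both on each day). JARID2, which brings the H3K27 methylating complex to its sites, fell by 1.92, 1.63 and 1.85, and KDM6A, which removes that mark, fell by 0.73, 0.96 and 1.04.

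Genes that flank the clusters were listed as 18, with 13 tested, to show whether a change ran past a cluster's end. Beside HOXB only SKAP1 and CALCOCO2 were tested, and neither was called. SKAP1 read 6.51 and 6.31 at day 0 and from 6.60 to 7.10 on the sorted arrays. Every sorted array was above both day 0 arrays, as for 22.2% of all genes tested. SKAP1 exceeded the array median only on replicate 1 of day 4 and of day 8. CALCOCO2 read 9.25 and 9.26 at day 0, 9.71 and 9.82 at day 4, and from 8.94 to 9.30 at day 6 and day 8. TTLL6, also beside HOXB and not tested, read 7.05 and 6.83 on the day 0 arrays and from 5.81 to 6.21 on the sorted ones. SKAP2, which flanks HOXA, read 7.37 and 7.55 at day 0 and from 9.52 to 10.07 on the sorted arrays, and rose by 2.51, 2.31 and 2.24. As no HOXA gene was tested, genes beside HOXA cannot show whether a change ran past its end. MTX2, which flanks HOXD, fell by 0.90, 1.73 and 1.45 (limma, adjusted p 0.0483, 0.00352 and 0.00714). At day 6 a further 3 fell, HIBADH and SMUG1 among them, and at day 8 HIBADH and SNX10 did. Of all genes tested, 9.91%, 13.6% and 14.1% were called lower on the 3 days, and 8.52%, 9.73% and 10.4% higher.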

How the data were processed

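The authors deposited 1 linear intensity per probe set and array, made with MAS5 per the submitters' processing notes, with the version and scaling not given in the sources used here. No detection calls were used. Of 54675 probe sets, 41091 carried 1 gene symbol in the platform annotation, 1801 several, 11721 none, and 62 were controls. By gene ID 41037 matched a RefSeq gene table, which changed 0 symbols. Values were taken as log2(intensity + 32). For each gene the probe set with 1 symbol and the highest mean was used, and a cross-hybridising one (_x_at) only for lack of another.

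A gene entered the fit if 2 or more of its 8 values exceeded their array's median, which left 13647 of 19775. These were fitted with limma 3.58.1 in R 4.3.3. The model had a term per day and a trended eBayes prior; p-values were two-sided and Benjamini-Hochberg adjusted over all 13647 genes, called at 0.05, with 4 residual and 2.84 prior degrees of freedom. The script was tested on simulated data. For 3 sorted samples the source name gives another day than title and description, which were used. Tested members are named with values, and from other lists up to 4 called genes with the smallest p, with the caudal and MEIS genes. The members and lists were chosen with earlier results of these data known. Alternatives changed the offset, filter, normalization, probe set rule, fit or arrays, 20 in all. Figures used Python 3.11.15 and matplotlib 3.10.9.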

Additional observations from a re-analysis of the deposited data

How the results depend on the processing

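The count of called HOX genes at day 4, day 6 and day 8 against day 0 was 6, 6 and 7. Leaving out each array in turn, it ranged from 2 to 7 at day 4, from 3 to 7 at day 6 and from 3 to 7 at day 8, and the lowest values came without either day 0 array, where the remaining array borrows its spread from the other groups. In the other alternatives the counts stayed within 1.5 times these values. Between the sorted days 0 HOX genes were called in all 20 alternatives. The change of HOXC6 turned to -0.42 at day 4 without replicate 1 of day 4 and to -0.22 at day 6 without replicate 1 of day 6, also where both arrays were left out; leaving out each array in turn, it ranged from -0.42 to 2.12 at day 4 and from -0.22 to 1.11 at day 6. With the replicate number as a block, 7, 6 and 7 HOX genes were called, HOXD8 being added at day 4. The differences between replicates correlated at -0.02, 0.02 and 0.02 between day 0 and day 4, day 6 and day 8, and at 0.60, 0.19 and 0.41 among the sorted days (4 with 6, 4 with 8, 6 with 8). The numbers were not taken to pair the arrays, since they did not do so with day 0 and the labels name no pairing; between the sorted days the block also gave 0 called HOX genes. With 2 arrays a group, changes of HOXB8 and HOXC6 were not detectable beyond the spread between their replicates.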
